A study of Homo sapiens with 22 samples.

Results

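The 9 genes described here encode TGF-beta and activin ligands (TGFB1, TGFB2, TGFB3 and INHBA), the TGF-beta receptors (TGFBR1, TGFBR2 and TGFBR3) and direct targets that feed back on the pathway (SMAD7 and SKIL). They were taken by symbol from a table of 35237 genes, as a list chosen by role with earlier results of these data known, and each of the 9 symbols had a row. RNA was counted in 22 libraries from 2 established human cell lines, SK-N-AS and GIMEN, labelled as mesenchymal neuroblastoma. Neuroblastoma arises from neural crest cells on their way to becoming sympathetic neurons. PP121 is a kinase inhibitor that acts on tyrosine kinases and phosphoinositide kinases, and bufalin is a cardiac glycoside, an inhibitor of the sodium pump.

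Untreated SK-N-AS cells (n = 4) grew in DMEM with 10% fetal bovine serum. The S1D4 cells (n = 4) had 4 days of 5 µM PP121 in DMEM with 1% serum. From that state, the S2D4 cells (n = 4) and the S2D30 cells (n = 4) had 4 or 30 further days of 5 µM PP121 with 100 nM bufalin in Neurobasal medium with B27 and no serum named. Untreated GIMEN cells (n = 3) grew in RPMI with 10% serum, and the GIMEN D30 cells (n = 3) had 30 days of 2.5 µM PP121 with 10 nM bufalin in RPMI with 1% serum. Drug, serum and days of treatment changed together from untreated cells to S1D4 and to GIMEN D30. Drug, medium, serum and days of treatment changed from S1D4 to S2D4. In each case the contributions of these factors cannot be told apart. From S2D4 to S2D30 the labels change the time alone. The labels do not say that replicates were separate experiments, so p-values measure the spread between these cultures, which may be technical.

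TGF-beta ligands are secreted in a latent form and, once released, bind TGFBR2, which recruits and phosphorylates TGFBR1. Activin A, a dimer of the INHBA product, signals through activin receptors of the same kinase family. Both routes phosphorylate SMAD2 and SMAD3, which join SMAD4 and bind DNA at short SMAD boxes. SMAD7 blocks the type I receptors and SKIL (SnoN) holds SMAD complexes in a repressed state, and both genes are switched on by the pathway they restrain. In neural crest derivatives the pathway is known for its part in mesenchymal programmes, matrix production and growth arrest.

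Total counts were 16456484 to 37506800 per library. Levels are given as CPM, counts scaled to a common library size over the 22 libraries. Replicate 4 of S2D4 stood apart, with a correlation of 0.967 to 0.969 with the other S2D4 libraries, which correlated at 0.99 with each other. Without it, 8 of 8 members were called in S2D4 against untreated cells (65.5% of all genes), 7 in S2D4 against S1D4 (58.2%) and 5 in S2D30 against S2D4 (53.7%). The summed level of 8 mesenchymal state markers was 931 to 1470 CPM in untreated SK-N-AS, 3090 to 3810 CPM in S2D30, 37700 to 39300 CPM in untreated GIMEN and 20500 to 23600 CPM in GIMEN D30. Single genes carried these sums, VIM in SK-N-AS (936.6 CPM untreated and 2860 CPM in S2D30) and FN1 in GIMEN (31480 CPM untreated and 18010 CPM in D30), while FN1 was lower in S2D30 (1.89 CPM) than in untreated SK-N-AS (60.3 CPM) and CD44 was higher in GIMEN D30 (1067 CPM) than in untreated GIMEN (693 CPM). That of 6 adrenergic state markers was 1420 to 1620 CPM in untreated SK-N-AS, 171 to 213 CPM in S2D30, 408 to 433 CPM in untreated GIMEN and 231 to 273 CPM in GIMEN D30. PHOX2A, an adrenergic regulator, was at 106.1 to 173.6 CPM in untreated SK-N-AS, which goes against the mesenchymal label of that line, while it had 0 counts in untreated GIMEN. Adrenergic markers were not absent from GIMEN, since HAND2 (362.7 CPM) and GATA3 (60.2 CPM) carried its untreated sum. In untreated SK-N-AS these genes were at 577.5 and 131.3 CPM. In GIMEN D30, HAND2 was lower (179.1 CPM) and GATA3 slightly higher (68.7 CPM) than in untreated GIMEN. TH, another adrenergic marker, was near 0 in both untreated lines, at 0.268 CPM in SK-N-AS and 0 counts in GIMEN. The summed level of 5 leukocyte markers was 160 to 207 CPM in untreated SK-N-AS, nearly all of it PTPRC (177 CPM). In S2D30 it was 3.02 to 5.43 CPM, mostly CD14. CD14 went from 1.34 CPM untreated to 3.09 CPM in S2D30, where PTPRC was at 0.85 CPM. CD3E had 0 counts in every SK-N-AS library. The sum of 2 endothelial markers was 2.75 to 2.94 CPM in untreated GIMEN and 24.1 to 30.2 CPM in GIMEN D30, nearly all PECAM1, with CDH5 at no more than 1 count per library. The part of these marker changes in the results below was not tested.

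Across the treatments, INHBA went from the lowest tested member to the second most abundant per kilobase in SK-N-AS, and TGFB3 rose and then fell. TGFB1 and its signalling receptors TGFBR1 and TGFBR2 were above untreated cells in S2D4 and in S2D30. Unlike INHBA, none of them had a called rise from S2D4 to S2D30. SMAD7 and SKIL fell at 4 days of PP121 and were near or above their untreated level in S2D30, whereas in GIMEN D30 both were far below untreated cells. Changes were tested with edgeR's quasi-likelihood F-test, and a gene was called at a Benjamini-Hochberg adjusted p under 0.05 over all genes tested. TGFB2 had too few counts for the test in SK-N-AS, which left 8 members there and 9 in GIMEN.

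In S1D4 against untreated cells, 5 of 8 tested members were called, 2 higher and 3 lower, while 40.1% of the 15810 tested genes were called. In S2D4 against untreated cells, 8 of 8 were called, 4 in each direction, against a background of 63.1%. In S2D30 against untreated cells, 7 of 8 were called, 6 of them higher, where 70.3% of genes were called. The step from S1D4 to S2D4 gave 8 of 8, 7 of them higher, with 55.1% of genes called, and the step from S2D4 to S2D30 gave 6 of 8, 4 of them higher, with 51.3%. In GIMEN D30 against untreated GIMEN, 7 of 9 were called, 4 higher and 3 lower, beside 71.4% of 13517 genes. With so many genes called, nothing particular to the members is read from these counts. The SK-N-AS comparisons share libraries, so their counts are not independent of each other. In bulk RNA, a change in the share of cells that express a gene and a change in RNA per cell cannot be told apart.

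**Figure D1:**
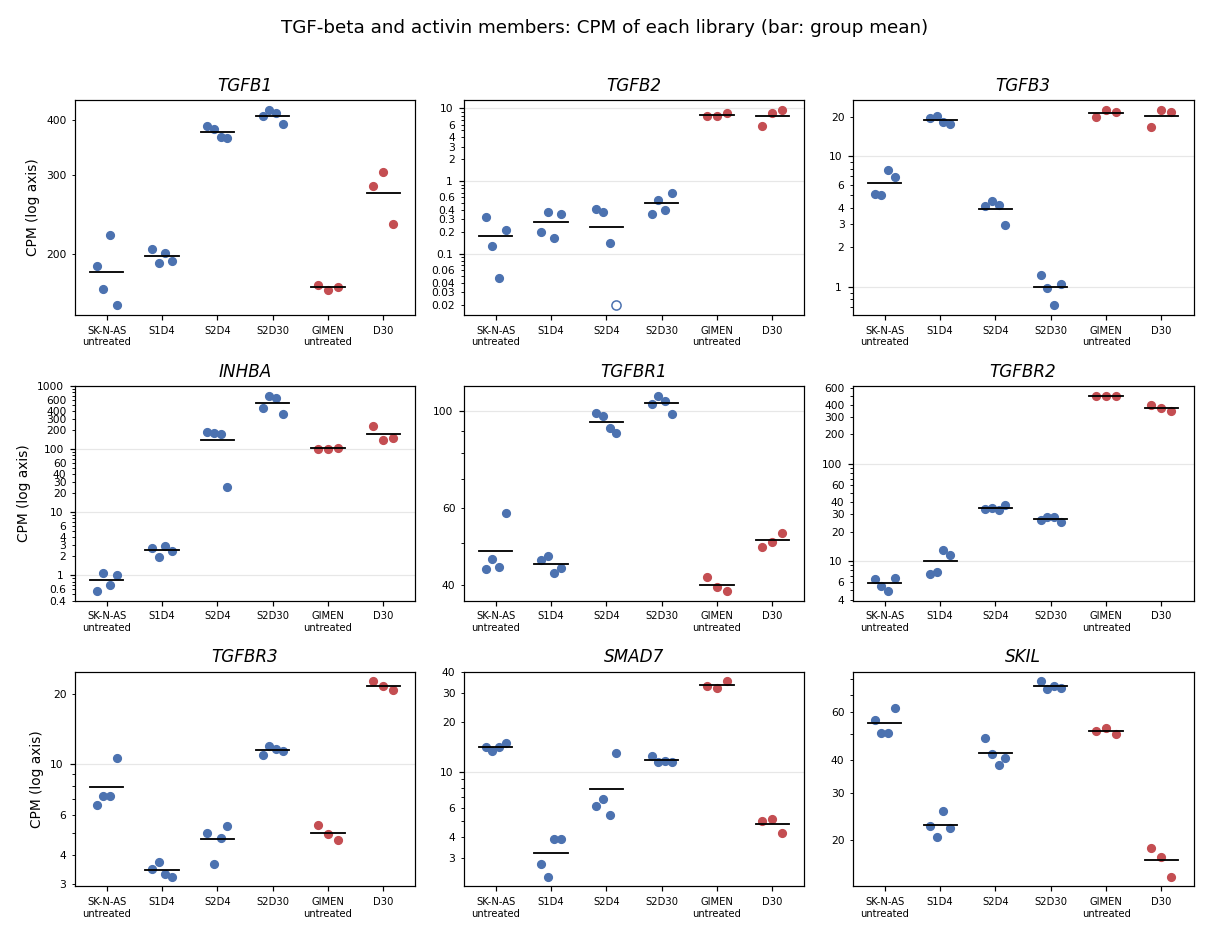
CPM (log axis) of the 9 members in each of the 22 libraries, SK-N-AS in blue and GIMEN in red, with the group mean as a bar; the open circle marks a library with 0 counts, drawn at 0.02 CPM. INHBA spans 0.569 to 707 CPM in SK-N-AS, with S2D4 replicate 4 at 24.7 CPM, and SMAD7 and SKIL are lowest in S1D4 and GIMEN D30.

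TGFB1, which encodes the most widely expressed TGF-beta ligand, rose in the bufalin stages of SK-N-AS and in GIMEN D30. Its level was 188, 166, 221 and 153 CPM in the untreated SK-N-AS libraries and 205, 191, 200.1 and 193 CPM in S1D4. It was 389, 382, 366 and 364 CPM in S2D4 and 409, 422, 414 and 392 CPM in S2D30. Untreated and S1D4 libraries overlapped, and every bufalin-treated library lay above both. The log2 fold change was 0.09 ± 0.10 (SE) in S1D4, which was not called (edgeR adjusted p = 0.497), 1.01 ± 0.10 in S2D4 (edgeR adjusted p = 1.37e-07) and 1.13 ± 0.10 in S2D30 (edgeR adjusted p = 1.92e-08). In GIMEN it was 169.9, 165 and 168 CPM untreated and 283, 305 and 233 CPM in D30, a log2 fold change of 0.68 ± 0.09 (edgeR adjusted p = 2.68e-05).

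The untreated lines did not differ detectably in TGFB1, with a log2 difference of -0.10 ± 0.12 for GIMEN minus SK-N-AS (edgeR adjusted p = 0.444). The order of the group means was untreated GIMEN, untreated SK-N-AS, S1D4, GIMEN D30, S2D4 and S2D30, and the first 3 overlapped as neighbours. S2D30 and S2D4 libraries did not overlap, at a log2 difference of 0.12 ± 0.10 that was not called (edgeR adjusted p = 0.297).

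TGFB3, a ligand known from palate and lung development, moved in opposite directions along the SK-N-AS protocol. It was 5.17, 5.07, 7.82 and 6.93 CPM in untreated cells and 19.8, 20.3, 18.2 and 17.6 CPM in S1D4. It then was 4.14, 4.56, 4.23 and 2.95 CPM in S2D4 and 1.23, 0.972, 0.725 and 1.04 CPM in S2D30. No 2 of these 4 groups overlapped. TGFB3 rose by 1.58 ± 0.17 (log2) in S1D4 (edgeR adjusted p = 3.61e-06) and fell by 0.69 ± 0.18 in S2D4 (edgeR adjusted p = 0.00297) and by 2.68 ± 0.20 in S2D30 (edgeR adjusted p = 4.46e-09), each against untreated cells. The step from S1D4 to S2D4 was a fall of 4.83-fold (log2 fold change -2.27 ± 0.18, edgeR adjusted p = 3.71e-08).

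GIMEN held TGFB3 at the level that SK-N-AS reached in S1D4, with 20.1, 22.7 and 21.7 CPM untreated and 16.8, 22.5 and 21.8 CPM in D30. The groups overlapped, and the log2 change of -0.10 ± 0.12 was not called (edgeR adjusted p = 0.435). Of the annotated exon bases of TGFB3, 5.87% lie opposite TGFB3-AS1, and whether counting used strand is not given in the sources used here.

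TGFB2, a ligand of mesenchymal and neural crest tissues, was far higher in GIMEN than in SK-N-AS. SK-N-AS libraries held 0 to 16 counts of it, 0.0477 to 0.321 CPM in untreated cells and 0.351 to 0.695 CPM in S2D30. The untreated and S2D30 libraries did not overlap, but with so few counts no treatment effect was tested within SK-N-AS. The S2D4 library with 0 counts allows up to 0.0972 CPM at 3 counts, a limit that covers counting error only. Untreated GIMEN libraries held 7.94, 7.9 and 8.7 CPM and D30 libraries 5.75, 8.63 and 9.63 CPM, with overlap and a log2 change of -0.06 ± 0.18 that was not called (edgeR adjusted p = 0.776). Untreated GIMEN exceeded untreated SK-N-AS by a log2 difference of 5.34 ± 0.34 (edgeR adjusted p = 2.45e-10). TGFB2 could be tested in that model, unlike in the SK-N-AS fit, because the GIMEN libraries were included. On the same strand, 27.1% of its exon bases are shared with TGFB2-OT1, so its counts are uncertain to that extent.

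INHBA encodes the subunit of activin A, a ligand first described as a stimulator of pituitary hormone release and since studied in differentiation and wound repair. It gave the largest change among the members. Untreated SK-N-AS libraries held 0.569, 1.09, 0.716 and 1.01 CPM, from 15 to 33 counts, and S1D4 libraries 2.73, 1.98, 2.95 and 2.44 CPM. S2D4 libraries held 188, 179.5, 172 and 24.7 CPM, and S2D30 libraries 442, 707, 643 and 362 CPM. No groups overlapped between successive stages, and replicate 4 of S2D4 was far below its group yet above every S1D4 library.

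Against untreated cells, the INHBA log2 fold change was 7.37 ± 0.58 in S2D4 (edgeR adjusted p = 1.34e-08) and 9.30 ± 0.61 in S2D30 (edgeR adjusted p = 7.34e-10), which is 630-fold. Without S2D4 replicate 4, the S2D4 change was 7.72 and the later step from S2D4 to S2D30 was 1.58 instead of 1.93. In S1D4 the change of 1.58 ± 0.62 missed the threshold (edgeR adjusted p = 0.0518) although the groups did not overlap. Over 16 alternative fits that p ranged from 0.00106 to 0.131, and it was under the threshold in 5 of them.

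In GIMEN, INHBA was already at 100.1, 102 and 105 CPM in untreated cells, a log2 difference of 6.96 ± 0.28 from untreated SK-N-AS (edgeR adjusted p = 8.16e-13). D30 libraries held 233, 142 and 149 CPM, above each untreated library. This gave a log2 fold change of 0.74 ± 0.15 (edgeR adjusted p = 0.000942), and 0.49 without D30 replicate 1, the highest library. Untreated GIMEN, S2D4 and GIMEN D30 overlapped as neighbours in level, while S2D30 was above them with no overlap.

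The stretch before the INHBA start site is shown because this gene changed most. It spans bases 250 to 1 before the first start listed for the gene in a RefSeq promoter table (GRCh38.p14, chr7:41703091-41703340, minus strand), written 5′ to 3′.
INHBA: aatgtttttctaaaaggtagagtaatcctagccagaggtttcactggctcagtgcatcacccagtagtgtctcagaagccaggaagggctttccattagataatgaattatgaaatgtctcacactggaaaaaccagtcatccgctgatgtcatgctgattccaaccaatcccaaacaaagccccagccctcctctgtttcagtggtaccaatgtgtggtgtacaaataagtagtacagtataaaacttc
These letters hold none of the motifs searched on both strands, namely the palindromic SMAD element GTCTAGAC, the SMAD box CAGAC, the GC-rich SMAD element GGCGCC and the AP-1 site TGANTCA. The palindrome does not contain a whole CAGAC. In the full window, which runs 50 bases past the start, 1 SMAD box begins at base 28. Of 27305 windows of the same length, 0.201% held GTCTAGAC, 45% held CAGAC, 19% held GGCGCC and 7.76% held TGANTCA.

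TGFBR1, the type I kinase that phosphorylates SMAD2 and SMAD3, rose about as much as TGFB1 in the bufalin stages. It was 43.5, 46, 44 and 58.4 CPM in untreated SK-N-AS and 45.7, 46.5, 42.6 and 43.8 CPM in S1D4. It was 99.2, 97.2, 91.5 and 88.9 CPM in S2D4 and 104, 108, 105 and 98.6 CPM in S2D30. Both bufalin groups lay above both earlier groups and overlapped each other. The log2 change was -0.13 ± 0.09 in S1D4, not called (edgeR adjusted p = 0.257), 0.94 ± 0.09 in S2D4 (edgeR adjusted p = 7.43e-08) and 1.08 ± 0.09 in S2D30 (edgeR adjusted p = 7.34e-09). GIMEN libraries held 41.7, 39.6 and 38.8 CPM untreated and 49, 50.1 and 52.7 CPM in D30, a log2 fold change of 0.31 ± 0.07 (edgeR adjusted p = 0.00132).

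TGFBR2, the type II receptor that binds TGF-beta directly, differed between the untreated lines nearly as much as INHBA. Untreated SK-N-AS libraries held 6.5, 5.55, 4.91 and 6.74 CPM, while untreated GIMEN libraries held 501, 491 and 495 CPM. The log2 difference was 6.39 ± 0.11 (edgeR adjusted p = 2.5e-17). In SK-N-AS the receptor rose in each treated group, to 7.39, 7.72, 13 and 11.4 CPM in S1D4, 34, 34.8, 33.6 and 37.7 CPM in S2D4 and 26, 28.4, 28.1 and 25.1 CPM in S2D30. The treated libraries lay above the untreated ones without overlap in each group.

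Its log2 fold change was 0.71 ± 0.16 in S1D4 (edgeR adjusted p = 0.00221), 2.52 ± 0.16 in S2D4 (edgeR adjusted p = 1.43e-09) and 2.14 ± 0.16 in S2D30 (edgeR adjusted p = 4.35e-09). TGFBR2 was lower in S2D30 than in S2D4 by 0.38 ± 0.15 on the log2 scale (edgeR adjusted p = 0.0461), a call lost in 13 of 16 alternative fits, where p ranged from 0.00247 to 0.107. All 8 fits that left out 1 library were among them, with p from 0.0625 to 0.107. In GIMEN D30 it was 399, 370.1 and 350.0 CPM, below each untreated library, with a log2 fold change of -0.44 ± 0.06 (edgeR adjusted p = 7.91e-05). The S2D30 level of SK-N-AS, 26.9 ± 1.61 CPM (SD, n = 4), remained below that of GIMEN D30, 373 ± 24.9 CPM (SD, n = 3).

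TGFBR3 (betaglycan) is a coreceptor that presents ligand to TGFBR2 and also binds inhibin. It fell at first in SK-N-AS and was above untreated cells in S2D30. It was 6.6, 7.21, 7.25 and 10.6 CPM in untreated cells, 3.49, 3.77, 3.33 and 3.24 CPM in S1D4, 5.03, 3.69, 4.75 and 5.38 CPM in S2D4 and 10.9, 12, 11.5 and 11.3 CPM in S2D30. Untreated replicate 4, at 10.6 CPM, came close to the lowest S2D30 library. Against untreated cells, its log2 fold change was -1.22 ± 0.16 in S1D4 (edgeR adjusted p = 1.69e-05), -0.77 ± 0.15 in S2D4 (edgeR adjusted p = 0.000357) and 0.50 ± 0.15 in S2D30 (edgeR adjusted p = 0.00766). The step from S1D4 to S2D4 (0.44 ± 0.16, edgeR adjusted p = 0.0267) had overlapping groups and lost its call in 7 of 16 alternative fits, where p ranged from 0.0104 to 0.0746. Leaving out S1D4 replicate 3 or 4, or S2D4 replicate 1 or 4, put p at 0.0583 to 0.0644.

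In GIMEN, TGFBR3 was the member that rose most, from 5.41, 4.96 and 4.69 CPM to 22.7, 21.6 and 20.9 CPM in D30. The log2 fold change of 2.09 ± 0.11 (edgeR adjusted p = 1.73e-08) is 4.25-fold. This is the highest level of TGFBR3 in any group, and no SK-N-AS library reached it.

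**Figure D2:**
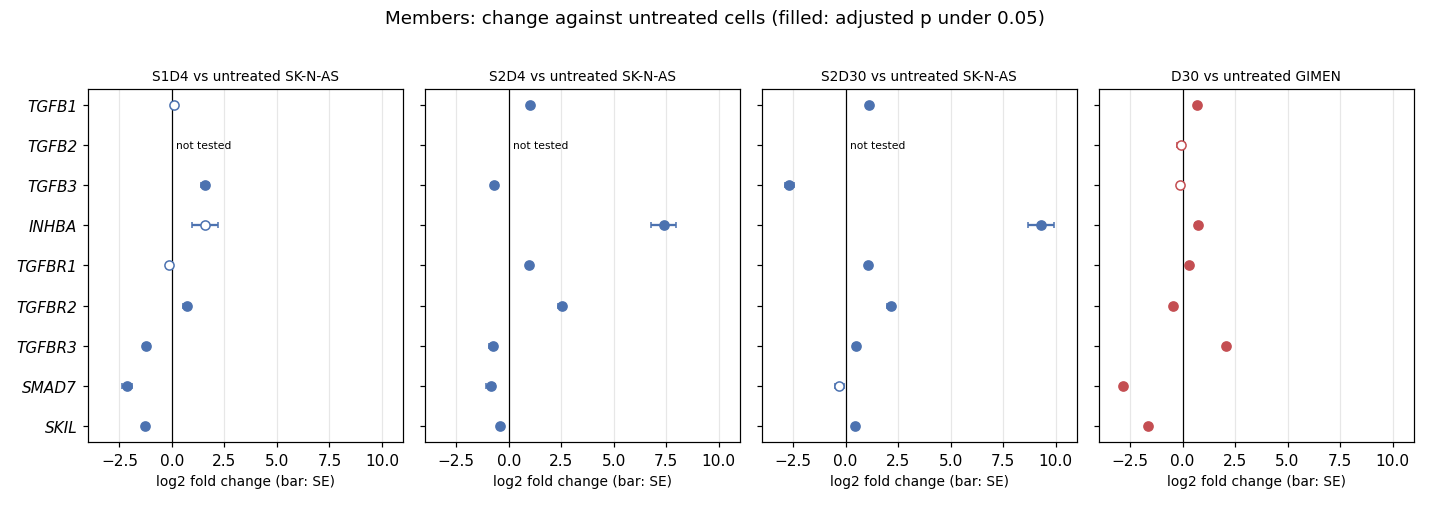
Log2 fold change against untreated cells of the same line, with its SE as a bar; filled points were called at an adjusted p under 0.05 and open points were not, and TGFB2 was not tested in SK-N-AS. INHBA lies at 7.37 in S2D4 and 9.30 in S2D30, while the largest change in GIMEN D30 is that of SMAD7, at -2.82.

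SMAD7, the inhibitory SMAD that is switched on by TGF-beta and brings ubiquitin ligases to the receptor, fell in S1D4 and fell most in GIMEN D30. In SK-N-AS it was 14.1, 13.3, 14.1 and 14.8 CPM untreated and 2.77, 2.31, 3.92 and 3.9 CPM in S1D4. It was 6.14, 6.84, 5.46 and 13 CPM in S2D4 and 12.4, 11.4, 11.5 and 11.4 CPM in S2D30. The S1D4 libraries were the lowest without overlap, and S2D4 replicate 4 lay above every S2D30 library. The log2 fold change was -2.15 ± 0.24 in S1D4 (edgeR adjusted p = 3.57e-06) and -0.87 ± 0.22 in S2D4 (edgeR adjusted p = 0.00292), or -1.23 without S2D4 replicate 4.

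In S2D30, SMAD7 was 0.30 ± 0.22 below untreated cells on the log2 scale, which was not called (edgeR adjusted p = 0.228) although the groups did not overlap. The p of that difference ranged from 0.0229 to 0.565 over 16 alternative fits and was under the threshold in 1, the fit of the compared groups alone. The rise from S2D4 to S2D30 was 0.56 ± 0.22 (edgeR adjusted p = 0.0462), a call lost in 9 of 16 alternative fits, with p from 8.38e-05 to 0.144. Leaving out S2D4 replicate 4 gave 0.92, and leaving out any other library of the pair of groups lost the call, with p from 0.0726 to 0.144. GIMEN libraries held 32.8, 32.1 and 35.2 CPM of SMAD7 untreated and 5.05, 5.14 and 4.24 CPM in D30. The fall was 7.05-fold (log2 fold change -2.82 ± 0.11, edgeR adjusted p = 1.1e-09).

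SKIL, which encodes the SMAD corepressor SnoN, followed SMAD7 in direction in S1D4 and GIMEN D30. It was 56.2, 50.2, 50.3 and 62.6 CPM in untreated SK-N-AS, 22.6, 20.6, 25.8 and 22.2 CPM in S1D4, 48.2, 42, 38.3 and 40.5 CPM in S2D4 and 78.5, 73.4, 75.3 and 74.3 CPM in S2D30. No 2 of these groups overlapped, with S1D4 lowest and S2D30 highest. The log2 fold change was -1.29 ± 0.09 in S1D4 (edgeR adjusted p = 5.7e-08), -0.41 ± 0.09 in S2D4 (edgeR adjusted p = 0.000976) and 0.42 ± 0.09 in S2D30 (edgeR adjusted p = 0.00058). GIMEN libraries held 51.1, 52.6 and 49.7 CPM untreated and 18.7, 17.3 and 14.6 CPM in D30, a log2 fold change of -1.62 ± 0.09 (edgeR adjusted p = 2.61e-08).

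The stretches before the SMAD7 and SKIL start sites are shown because these genes fell together in S1D4 and in GIMEN D30. They come from the same RefSeq table (GRCh38.p14), at the first start listed for each gene, 5′ to 3′, with matches to the motifs above in capitals. The SMAD7 stretch is chr18:48951066-48951215 on the minus strand, bases 250 to 101 before the start, and the SKIL stretch is chr3:170357495-170357644 on the plus strand, bases 220 to 71 before the start.
SMAD7: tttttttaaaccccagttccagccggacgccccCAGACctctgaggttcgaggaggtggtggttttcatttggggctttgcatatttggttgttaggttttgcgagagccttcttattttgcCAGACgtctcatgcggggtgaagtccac
SKIL: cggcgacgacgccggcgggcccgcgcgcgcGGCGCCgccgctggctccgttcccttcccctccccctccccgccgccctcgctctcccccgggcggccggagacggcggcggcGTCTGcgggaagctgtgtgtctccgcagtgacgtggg
SMAD7 holds 2 SMAD boxes, and SKIL holds 1 SMAD box on the opposite strand (written GTCTG) and 1 GC-rich element. All 9 members matched the table, and their full windows held 2 SMAD boxes in TGFB2, TGFB3 and SMAD7, 1 in INHBA, TGFBR1 and SKIL, and 0 in TGFB1, TGFBR2 and TGFBR3. None of these 9 windows, each at the first listed start, held GTCTAGAC or TGANTCA. RefSeq lists 3 starts for SMAD7, 8 for TGFBR1 and 2 each for TGFB3 and TGFBR2. The further starts and more distant bases were not searched, so a motif there is not excluded. These matches describe the letters and are not evidence of binding.

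Between genes, levels can be compared per kilobase of annotated exon (CPM per kb). In untreated SK-N-AS, TGFB1 led with 65.7 ± 10.7 (SD, n = 4), followed by SKIL at 7.59 ± 0.82 and TGFBR1 at 7.25 ± 1.07, with INHBA at 0.128 ± 0.037. TGFBR2, at 1.26 ± 0.18, was below its partner TGFBR1. In S2D30, TGFB1 stood at 147.8 ± 4.63 and INHBA at 81.7 ± 24.7 CPM per kb, ahead of every other member. Untreated GIMEN had TGFBR2 at 105.4 ± 1.13 (SD, n = 3) and TGFBR1 at 6.05 ± 0.22, the reverse of the receptor order in SK-N-AS. In GIMEN D30 the leading levels were 98.8 ± 13.4 for TGFB1 and 79.3 ± 5.28 for TGFBR2.

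The 30-day treatments changed the members differently in the lines. The difference of the 30-day log2 change, GIMEN minus SK-N-AS, was tested as an interaction in 14 libraries, and 9 of 9 members were called, 7 of them negative, where 49.7% of 16246 genes were called. TGFB2 had too few counts for the SK-N-AS fit and was tested here only because the GIMEN libraries were included. No change of TGFB2 within SK-N-AS is read from its call. Doses, media and lines differ together, so the interaction compares protocols as applied to each line. INHBA had the largest difference, -8.54 ± 0.36 (edgeR adjusted p = 2.08e-11), from a base that was far higher in GIMEN. TGFBR2 differed by -2.55 ± 0.13 (edgeR adjusted p = 1.84e-10), since it rose in SK-N-AS and fell in GIMEN.

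The feedback genes also differed, SMAD7 by -2.50 ± 0.14 (edgeR adjusted p = 6.15e-10) and SKIL by -2.03 ± 0.13 (edgeR adjusted p = 2.61e-09). SKIL was above untreated cells in S2D30 and below them in GIMEN D30. The difference was positive for TGFB3, 2.59 ± 0.26 (edgeR adjusted p = 4.91e-07), and for TGFBR3, 1.61 ± 0.20 (edgeR adjusted p = 3.98e-06). TGFBR1 differed by -0.76 ± 0.12 (edgeR adjusted p = 8.6e-05). The smaller differences of TGFB1 (-0.44 ± 0.17, edgeR adjusted p = 0.0383) and TGFB2 (-1.32 ± 0.49, edgeR adjusted p = 0.0336, on 1 to 16 counts per SK-N-AS library) lost their call in 9 and 7 of 21 alternative fits, with p from 0.00569 to 0.101 and from 0.00782 to 0.106. For TGFB1 the libraries whose removal lost the call were untreated SK-N-AS replicate 2, S2D30 replicates 1, 2 and 3, each untreated GIMEN library and GIMEN D30 replicate 3 (p from 0.0546 to 0.101). For TGFB2 they were untreated SK-N-AS replicates 2 and 3, S2D30 replicates 2 and 4, untreated GIMEN replicate 3 and GIMEN D30 replicate 1 (p from 0.0568 to 0.0877).

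Between the untreated lines, 7 of 9 members were called in the same model, 5 of them higher in GIMEN, beside 73.9% of all genes. Higher in GIMEN were TGFBR2, INHBA and TGFB2, given above, TGFB3 by 1.81 ± 0.16 (log2, edgeR adjusted p = 2.61e-08) and SMAD7 by 1.26 ± 0.09 (edgeR adjusted p = 1.86e-09). TGFBR3 was lower by 0.64 ± 0.15 (edgeR adjusted p = 0.000841). TGFBR1 was lower by 0.24 ± 0.09 (edgeR adjusted p = 0.0212), a call lost in 3 of 14 alternative fits, with p from 0.000757 to 0.102. That difference was 0.15 in size without untreated SK-N-AS replicate 4 (edgeR adjusted p = 0.0434), and the call was lost without untreated GIMEN replicate 2 (edgeR adjusted p = 0.0796) or replicate 3 (edgeR adjusted p = 0.102). SKIL, at -0.09 ± 0.09, was not called (edgeR adjusted p = 0.407), but upper-quartile scaling, which shifts the median of all genes by -0.15 in this comparison, put it at -0.24 with an edgeR adjusted p of 0.0219.

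Another 62 genes of the pathway, in 5 lists, were read beside the members. In S1D4, 35 of 58 tested list genes were called (60.3%, beside 40.1% of all genes), 20 higher and 15 lower. In S2D4 it was 52 of 58 (89.7%, beside 63.1%), 32 higher and 20 lower, and in S2D30 also 52 (beside 70.3%), 34 higher and 18 lower. In GIMEN D30 it was 47 of 54 (87%, beside 71.4%), 25 higher and 22 lower. By direction, 33.8% of all genes were called higher and 36.5% lower in S2D30, and 35.5% higher and 36% lower in GIMEN D30, and the counts of single lists below stand beside these shares. The median log2 fold change over the tested list genes was 0.16 in S1D4, 0.58 in S2D4, 0.60 in S2D30 and 0.11 in GIMEN D30, where the medians of all tested genes were -0.01, -0.02, -0.03 and 0.02.

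**Figure D3:**
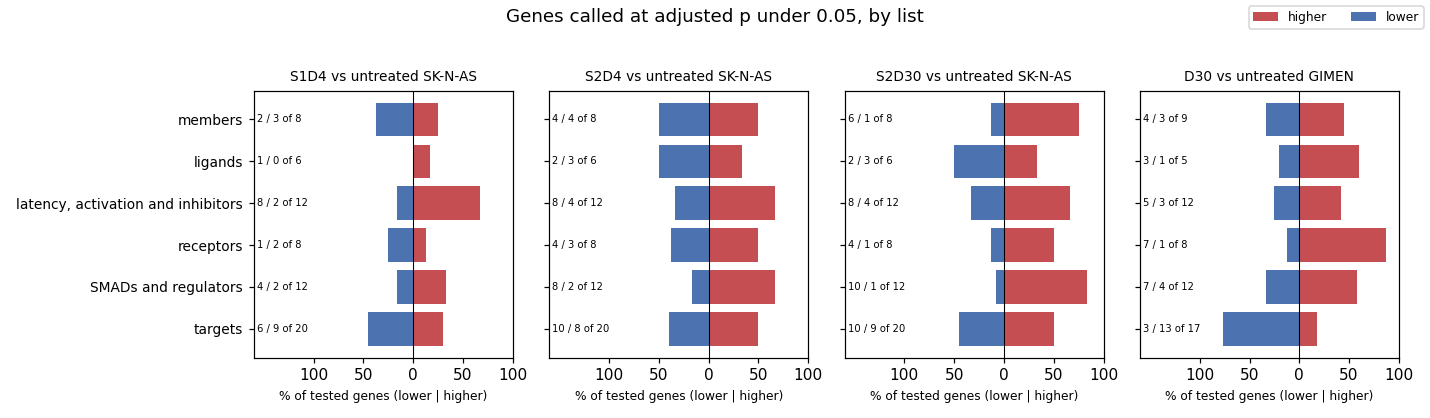
Share of the tested genes of each list called higher (red, to the right) or lower (blue, to the left) against untreated cells, with the counts as higher / lower of tested. The targets stand at 10 / 9 of 20 in S2D30 and 3 / 13 of 17 in GIMEN D30.

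Among further ligands, GDF15, a stress-induced member of the superfamily that signals outside the SMAD pathway through GFRAL, rose in every treated group. It averaged 5.82 ± 1.33 CPM in untreated SK-N-AS, 46.4 ± 14.4 CPM in S1D4 and 811 ± 208 CPM in S2D30 (SD, n = 4 each), a log2 fold change of 7.08 ± 0.78 in S2D30 (edgeR adjusted p = 4.36e-07). In S2D4 it ranged from 204.9 to 2054 CPM, with replicate 4 the highest. GIMEN went from 68.1 ± 3.90 to 1795 ± 392 CPM (SD, n = 3 each), a log2 fold change of 4.69 ± 0.15 (edgeR adjusted p = 2.36e-10). GDF11, an activin-like ligand, fell by 0.74 ± 0.13 in S2D30 (log2, edgeR adjusted p = 5.7e-05) and rose by 1.18 ± 0.10 in GIMEN D30 (edgeR adjusted p = 1.01e-06), and that difference was called (1.93 ± 0.17, edgeR adjusted p = 7.2e-08). Of the 6 tested ligands in S2D30, 2 were higher and 3 lower, and of 5 in GIMEN D30, 3 were higher and 1 lower, which is 83.3% called beside 70.3% of all genes and 80% beside 71.4%.

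Genes of latency, activation and inhibition moved in both directions, with 8 of 12 higher and 4 lower in S2D30 and 5 of 12 higher and 3 lower in GIMEN D30. The share called in S2D30, 100%, was above that of all genes, 70.3%, and the share called in GIMEN D30, 66.7%, was below that of all genes, 71.4%. FST encodes follistatin, which binds and neutralises activin, and it appeared in SK-N-AS alongside INHBA. Untreated libraries held 2 or 3 counts each (9 in all), S1D4 libraries 0.361 to 1.51 CPM, S2D4 libraries 2.98 to 7.39 CPM and S2D30 libraries 22.9 to 30.8 CPM. From summed counts, the S2D30 level was 338 times the untreated one, with an exact 95% interval of 178 to 740 that covers counting error only. The fitted log2 fold change was 8.26 ± 0.47 (edgeR adjusted p = 1.3e-10). In GIMEN it was 132 ± 5.79 CPM untreated and 231 ± 93.6 CPM in D30 (SD, n = 3 each), with overlapping libraries and a log2 fold change of 0.78 ± 0.24 (edgeR adjusted p = 0.0122). That call was lost in DESeq2 (adjusted p = 0.0737) and, in edgeR, without D30 replicate 2 (adjusted p = 0.0556) or D30 replicate 3 (adjusted p = 0.0539).

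DCN, the matrix proteoglycan decorin that binds TGF-beta, fell in both lines. It went from 40.7 ± 15.1 to 2.50 ± 0.27 CPM in S2D30 (SD, n = 4 each), a log2 fold change of -4.06 ± 0.36 (edgeR adjusted p = 2.87e-08). In GIMEN D30 it went from 12.3 ± 1.69 to 0.354 ± 0.20 CPM (SD, n = 3 each), from 3 to 9 counts per library, with a log2 fold change of -5.13 ± 0.28 (edgeR adjusted p = 2.26e-08). ITGB8, the integrin subunit that activates latent TGF-beta, rose by 2.29 ± 0.10 in GIMEN D30 (edgeR adjusted p = 2.53e-09) and by 2.49 ± 0.23 in S2D30 (edgeR adjusted p = 6.43e-08).

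Receptors outside the members were called higher in 4 of 8 and lower in 1 of 8 in S2D30, and higher in 7 of 8 and lower in 1 of 8 in GIMEN D30. The 62.5% called in S2D30 was below the 70.3% of all genes, and the 100% called in GIMEN D30 was above the 71.4% of all genes. ACVR1B, the activin type I receptor, rose from 34.04 ± 3.89 to 103 ± 5.37 CPM in S2D30 (SD, n = 4 each), a log2 fold change of 1.56 ± 0.19 (edgeR adjusted p = 1.17e-06). It also rose in GIMEN D30, by 1.09 ± 0.08 (edgeR adjusted p = 1.8e-07). ACVR2B, an activin type II receptor, rose by 1.40 ± 0.14 in GIMEN D30 (edgeR adjusted p = 3.44e-06), while its log2 change in S2D30, -0.26 ± 0.12, was not called (edgeR adjusted p = 0.0636). It was called without untreated SK-N-AS replicate 1 (-0.31, edgeR adjusted p = 0.039) or replicate 3 (-0.33, edgeR adjusted p = 0.0299). ENG (endoglin), a coreceptor best known from endothelium, fell by 1.41 ± 0.19 in S2D30 (edgeR adjusted p = 5.85e-06) and by 1.30 ± 0.10 in GIMEN D30 (edgeR adjusted p = 3.8e-07).

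SMADs and their regulators were called higher in 10 of 12 and lower in 1 of 12 in S2D30, and higher in 7 and lower in 4 of 12 in GIMEN D30, 91.7% called in each beside 70.3% and 71.4% of all genes. SMAD6, the inhibitory SMAD of the BMP branch and relative of SMAD7, fell in both lines. Its level was 23.7 ± 6.59 CPM untreated and 2.91 ± 0.36 CPM in S2D30 (SD, n = 4 each), a log2 fold change of -3.06 ± 0.22 (edgeR adjusted p = 2.68e-09), and it fell by 2.24 ± 0.12 in GIMEN D30 (edgeR adjusted p = 1.76e-08). TGIF1, a corepressor of SMAD2, rose from 26.1 ± 2.44 to 206 ± 19.0 CPM in S2D30 (SD, n = 4 each), a log2 fold change of 2.95 ± 0.13 (edgeR adjusted p = 1.04e-11), and by 1.90 ± 0.08 in GIMEN D30 (edgeR adjusted p = 2.33e-09).

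Among 20 tested target genes in S2D30, 10 were higher and 9 lower, with a median log2 fold change of 0.87 beside -0.03 for all genes, of which 33.8% were higher and 36.5% lower. In GIMEN D30, 3 of 17 were higher and 13 lower, with a median of -1.45 beside 0.02 for all genes, of which 35.5% were higher and 36% lower. CDKN2B, the cell cycle inhibitor p15, rose in both, from 3.27 ± 1.42 to 135 ± 8.36 CPM in S2D30 (SD, n = 4 each; log2 fold change 5.31 ± 0.26, edgeR adjusted p = 2.43e-11) and by 2.39 ± 0.06 in GIMEN D30 (edgeR adjusted p = 8.3e-11). BHLHE40, a transcriptional repressor, rose in S2D30 from 5.36 ± 1.82 to 327 ± 25.6 CPM (SD, n = 4 each), a log2 fold change of 5.89 ± 0.24 (edgeR adjusted p = 2.38e-12). In GIMEN D30 its log2 change was -0.25 ± 0.09 (edgeR adjusted p = 0.026) with overlapping libraries, and the call was lost without untreated GIMEN replicate 1 or 2 or D30 replicate 2 or 3, with p from 0.0551 to 0.0956.

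TAGLN, a smooth-muscle actin-binding protein, fell in GIMEN D30 from 167 ± 9.10 to 3.35 ± 0.68 CPM (SD, n = 3 each), a log2 fold change of -5.66 ± 0.11 (edgeR adjusted p = 6.93e-12). In SK-N-AS it was low throughout, at 3.35 ± 0.82 CPM untreated and 4.56 ± 0.15 CPM in S2D30 (SD, n = 4 each), and was not called in S2D30 (0.41 ± 0.23 on the log2 scale, edgeR adjusted p = 0.115), though it was without untreated replicate 2 (0.58, edgeR adjusted p = 0.0355). The difference of its 30-day change between the lines was -6.07 ± 0.21 (edgeR adjusted p = 1.96e-12). TGFBI, a TGF-beta-induced matrix protein, fell by 3.88 ± 0.12 in GIMEN D30 (edgeR adjusted p = 1.93e-10) and by 4.27 ± 0.31 in S2D30 (edgeR adjusted p = 2.12e-09). The summed mesenchymal markers, which share SNAI2 with the target list, were also lower in GIMEN D30 than in untreated GIMEN, mostly through FN1, and higher in S2D30 than in untreated SK-N-AS, mostly through VIM. Their part in the target counts was not tested. Over the 17 target genes tested in both lines, whose 30-day comparisons share no libraries, 3 were called higher in both, 6 lower in both and 6 higher in S2D30 but lower in GIMEN D30. Over all 13088 genes tested in both, these shares were 20.1%, 22.2% and 5.29%. BHLHE40 is 1 of the 6 target genes with opposite calls, and its GIMEN call was lost without some single libraries, as given above.

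**Figure D4:**
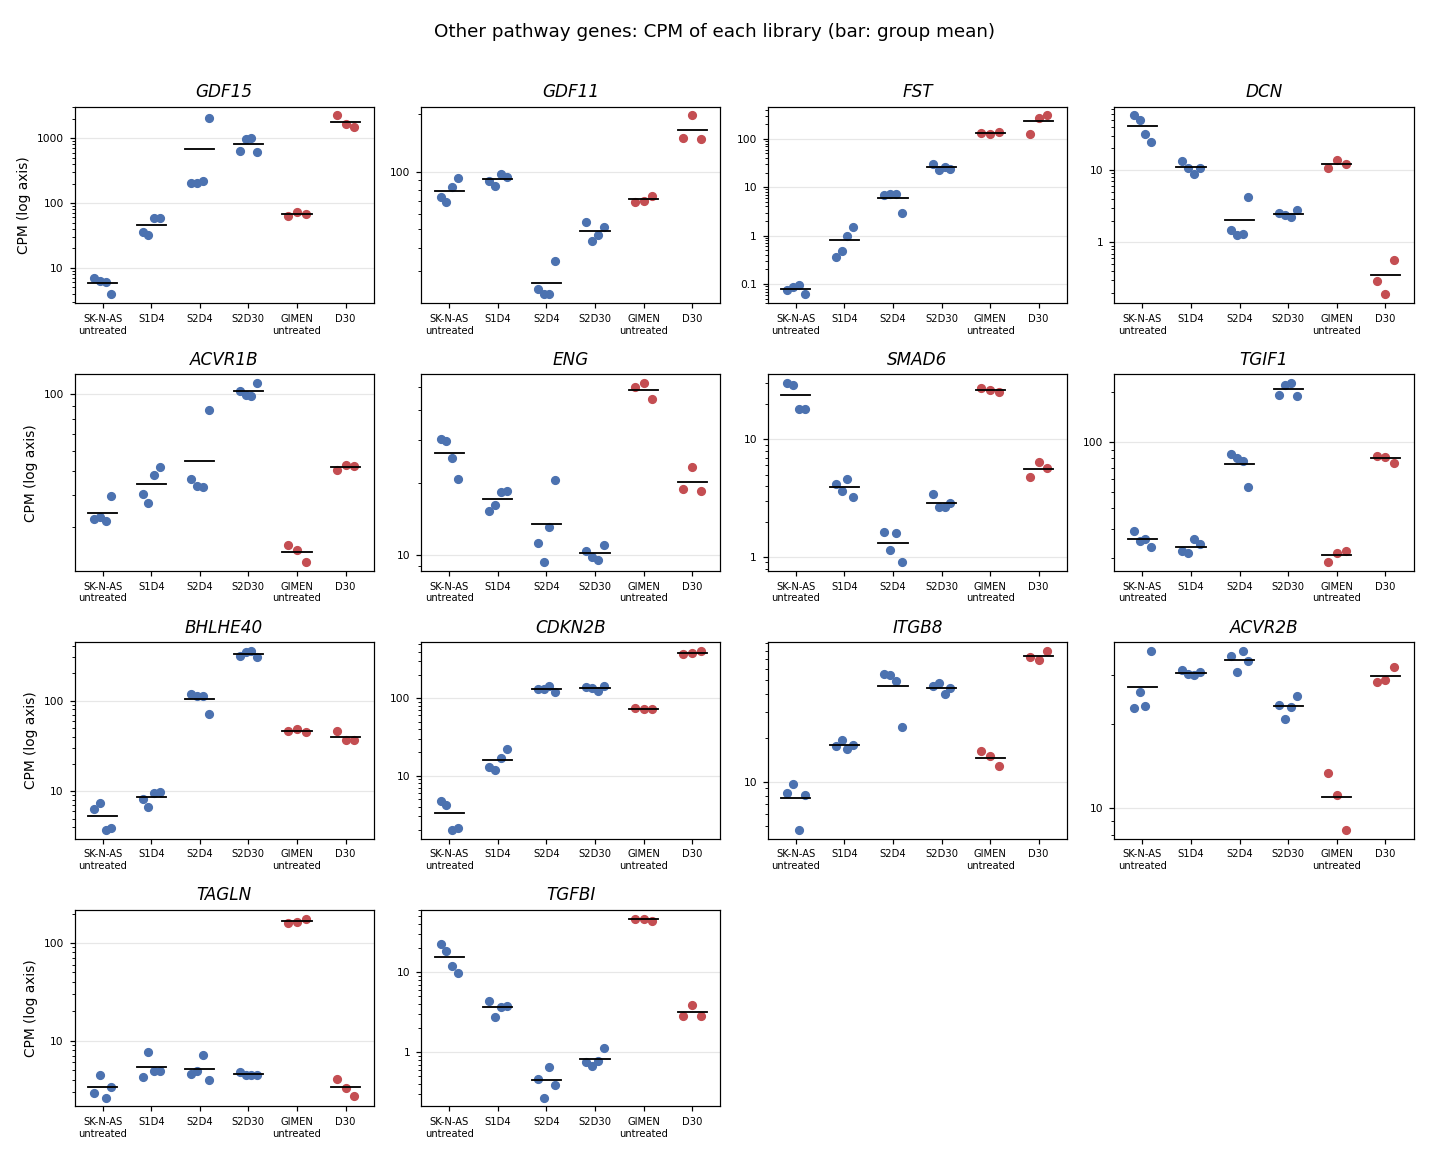
CPM (log axis) of the 14 further pathway genes named in the text in each of the 22 libraries, SK-N-AS in blue and GIMEN in red, with the group mean as a bar. FST reaches 22.9 to 30.8 CPM in S2D30 from 2 or 3 counts per untreated library, and TAGLN drops from 167 to 3.35 CPM in GIMEN D30.

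**Figure D5:**
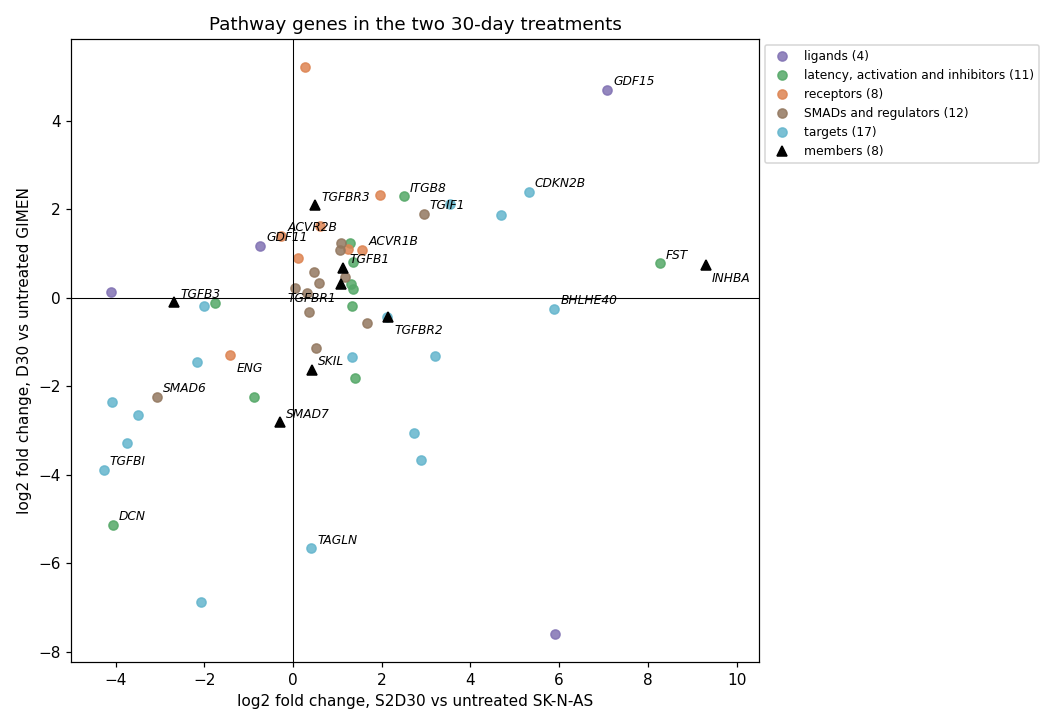
Log2 fold change in GIMEN D30 against that in S2D30, each against untreated cells of its line, for 52 list genes (circles, coloured by list) and 8 members (triangles) tested in both; unlabelled genes were outside the naming rule, which asked for 5 CPM, groups without overlap and 1 of the 2 largest changes of a list. INHBA and FST lie far right, at 0.74 and 0.78 on the GIMEN axis, DCN and TGFBI lie low in both, and TAGLN lies at -5.66 in GIMEN and 0.41 in SK-N-AS.

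As a description over the 22 libraries, which share their 6 groups, the genes whose log2 CPM followed each member most closely were named from genes with at least 5 CPM in some group. INHBA was followed by RND3 (r = 0.98) and CH17-472G23.4 (0.978), TGFB1 by CRADD and DUSP1 (both 0.974), and TGFBR2 by PDCD6IP (0.994) and SSFA2 (0.991). SMAD7 was followed by EIF4H (0.935), and SKIL by ZNF567 (0.951) and NANP (0.929). TGFB3 was nearest to MGAT5B (0.969) and RTKN (0.958), TGFBR1 to APOOL (0.976) and METTL14 (0.969), and TGFBR3 to PIAS1 (0.933) and TMEM63A (0.914). For TGFB2, nearest to NEGR1 (0.976) and ANO10 (0.974), the values were 0.76 and 0.757 within the 16 SK-N-AS libraries, which is lower than over all 22.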

How the data were processed

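RNA was sequenced in 22 libraries of SK-N-AS (16) and GIMEN (6), as paired reads from total RNA per the labels' protocols. The authors deposited a table of raw read counts for 35237 genes. The aligner, counter, strand setting and genome build behind it are not given in the sources used here. Samples were grouped by the treatment in the labels.

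From the counts, edgeR 4.0.16 (R 4.3.3) was run with TMM scaling, its default expression filter (minimum count 10, total 15) and a quasi-likelihood F-test, and p-values were adjusted over all genes tested by the Benjamini-Hochberg method with a threshold of 0.05. There were 3 models: 16 SK-N-AS libraries (15810 genes), 6 GIMEN libraries (13517 genes), and 14 untreated and 30-day libraries of both lines (16246 genes). The SE is the log2 fold change divided by the square root of F. Levels are CPM with TMM scaling over the 22 libraries, and exon lengths come from GENCODE v29. Depth, 16456484 to 37506800 counts, limits TGFB2 and FST in SK-N-AS, where libraries hold few counts.

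The 9 members and the 62 genes of the lists were chosen with earlier results of these data known. The members were named in every comparison. Of each list, the 2 genes with the largest called change in S2D30 and the 2 in GIMEN D30 were named, if the libraries did not overlap and the higher mean was at least 5 CPM. For likeness, the 2 genes with the highest Pearson correlation to each member were named, apart from 1 that is not reported here. The tests were tried on simulated counts first. Depending on the comparison, 57.1% to 82.5% of simulated 2-fold changes were called in the right direction. False calls made up 1.7% to 9.18% of all calls, so in some comparisons they exceeded the 5% that the threshold aims at. Alternatives were DESeq2 1.42.0 and its size factors, upper-quartile scaling, no filter or a minimum mean of 10 counts, and a replicate block. Further ones were other sets of libraries in the fit, a rule of at least 1 in log2 fold change, and leaving out each library. In SK-N-AS, a term shared by replicates 3 and 4 of the untreated and S1D4 groups was also tried.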

Additional observations from a re-analysis of the deposited data

Results flagged for a closer look

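In 3 of 36 sets checked (9 members in the SK-N-AS groups of 4 libraries), a library lay far from the other 3 of its group. Chance gives this in about 1 of 20 groups. INHBA was 24.69 CPM in S2D4 replicate 4 and 171.9 to 187.9 CPM in the others. TGFBR1 was 58.41 CPM in untreated SK-N-AS replicate 4 and 43.46 to 45.96 CPM in the others. TGFBR3 was 10.56 CPM in that same untreated library and 6.6 to 7.251 CPM in the others.

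The 30-day change differed between the lines for each of the 9 members by the interaction test. The difference in log2 fold change, GIMEN minus SK-N-AS, was -0.4366 for TGFB1, -1.32 for TGFB2, 2.586 for TGFB3 and -8.54 for INHBA among the ligands. It was -0.7564 for TGFBR1, -2.551 for TGFBR2 and 1.607 for TGFBR3 among the receptors, and -2.498 for SMAD7 and -2.031 for SKIL. The calls of TGFB1 and TGFB2 were lost in some of the alternative fits.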

How the results depend on the processing

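Of 1063 alternative values for 67 changes of single members, 1005 kept their direction and their side of the threshold, 48 lost a call, 7 gained one and 3 changed sign. The sign changes were among changes that were not called: TGFB2 (0.1418) and TGFB3 (0.02683) in GIMEN D30 without GIMEN D30 replicate 1, and TGFB1 (0.00397) between the untreated lines without untreated SK-N-AS replicate 3. Leaving out single libraries moved these values between -0.2195 and 0.1418, between -0.1795 and 0.02683, and between -0.1925 and 0.00397. Of 1133 values for the other named genes, 1095 kept both, 32 lost a call and 6 gained one.

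Requiring a log2 fold change of at least 1 as well left 3 members called in S2D4 against untreated cells, 5 in S2D4 against S1D4, 3 in S2D30 against S2D4 and 3 in GIMEN D30. It left 22 pathway list genes in S1D4 and 18 in S2D30 against S2D4. Counts in the comparisons not named here changed by a smaller factor. The share of all genes passing this added rule was not computed, so nothing particular to the members or lists is read from these counts. Leaving out 1 library at a time gave 5 members in S1D4, 8 in S2D4, 7 in S2D30, 7 to 8 in S2D4 against S1D4, 4 to 5 in S2D30 against S2D4, 7 in GIMEN D30, 7 to 9 for the difference between lines and 6 to 7 between the untreated lines. For the list genes these ranges were 30 to 35, 49 to 53, 51 to 52, 40 to 44, 31 to 39, 45 to 49, 37 to 41 and 48 to 52. The share of all genes called in these fits was 33.6% to 42.8%, 58.7% to 65.5%, 66.2% to 71.4%, 50.1% to 58.2%, 45.7% to 53.7%, 64.6% to 70.2%, 44.3% to 55.2% and 68.4% to 76.3%. Without the expression filter the share of all genes called was 22.1%, 39%, 45.4%, 32.5%, 30.6%, 45.9%, 30.1% and 48.6% in the same order, since genes with few counts then enter the denominator.

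Replicate numbers are shared between groups, but same-numbered libraries did not deviate together in every pair (the correlations of S1D4 with untreated cells were 0.0436 to 0.293, and 3 of 4 were highest with their own number). With the replicate block, 6 members were called in S1D4, 8 in S2D4, 7 in S2D30, 8 in S2D4 against S1D4, 5 in S2D30 against S2D4, 7 in GIMEN D30, 9 for the difference between lines and 6 between the untreated lines, beside 40.8%, 63.6%, 70.9%, 55.7%, 51.6%, 69.7%, 51.3% and 74.3% of all genes. With the block, INHBA in S1D4 was called (1.55, edgeR adjusted p = 0.043). Depth limits TGFB2 in SK-N-AS, with 0 to 16 counts per library.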
